A study of Mus musculus with 7 samples.

Results

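The neutrophils among leukocytes sorted from GL261 glioma-bearing mouse brains were 86 of 40416 kept barcodes, or 0.213%. They were selected on measured values of single-cell RNA sequencing. Droplet barcodes were kept from 300 detected genes up, if mitochondrial genes gave no more than 10% of transcript counts (UMIs). A kept barcode counted as a neutrophil when S100a8 and S100a9 together made up at least 1% of its UMIs and at least 1 UMI came from Retnlg, Csf3r, Ngp or Camp. At most 3 UMIs from C1qa, C1qb and C1qc and 0 from Cd3e, Cd3d and Cd3g were allowed. These genes describe how the cells were found and are given below without a test. Just inside the S100 limit, 5 cells had 1.23 to 1.53% and a median of 5 of 12 further neutrophil markers. Just outside it, 6 barcodes that met the other criteria had 0.554 to 0.952% and a median of 3.5 markers.

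Neutrophils are short-lived granulocytes made in the bone marrow. They fill their granules in order while they mature: azurophil granules with myeloperoxidase and serine proteases at the promyelocyte stage, secondary granules with lactoferrin, lipocalin-2 and cathelicidin at the myelocyte stage, and gelatinase granules last. The calcium-binding proteins S100a8 and S100a9 accumulate in the cytosol. Mature cells leave the marrow through the chemokine receptor Cxcr2, and in tumours they can secrete interleukin-1β and chemokines and carry molecules that restrain T cells.

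All mice were female, of WT genotype and 8 to 9 weeks old, and carried GL261 tumours, a mouse glioma line, in the left brain hemisphere. Leukocytes were sorted as CD45-positive and DRAQ7-negative on day 21, so dead cells were gated out. The combination group received PT2385, an inhibitor of the transcription factor HIF-2α, with immune checkpoint blockade (ICB), antibodies against PD-1 and TIM-3. The other groups received ICB alone, PT2385 alone, or neither (untreated). PT2385 was dosed at 10 mg/kg from day 7, and the labels' stated 21 days of dosing run past the harvest, so the length of treatment is uncertain. The labels name a vehicle and isotype antibodies without saying whether the library labelled untreated received them. Each library pooled 2 mice. There were 2 libraries each for the combination, ICB and PT2385, and 1 for untreated mice. Pools are numbered only in the order of their records, so p-values measure the spread between pools.

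The 7 libraries held 4926 to 8080 barcodes and 59839154 to 81960504 UMIs. Median depth of kept barcodes other than neutrophils was 9679.5 UMIs and 3091 genes. Neutrophils had a median of 4353 UMIs and 1398.5 genes. Depth of single neutrophils ran between 559 and 36313 UMIs. Across libraries, 174 barcode sequences of kept cells recurred, and 0 neutrophils carried one of them. Of 1948 barcodes with the highest doublet scores, 1 was a neutrophil, in ICB pool 1.

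The label was checked on 12 neutrophil markers that the selection did not use. A neutrophil carried UMIs of a median of 9 of them, against a median of 1 in monocytes (barcodes with at least 3 UMIs of Ly6c2 and 1 of Ccr2) and 0 in T cells (at least 2 Cd3 UMIs). At least 6 of the 12 were found in 69 of 86 cells, and 5 cells had 3 or fewer. Hdc, which makes histamine, was detected in 79 cells, the decoy receptor Il1r2 in 78, the gelatinase Mmp9 in 71, G0s2 in 70 and the chemokine receptor Cxcr2 in 66. Among T cells, with a median of 9749.5 UMIs, Cxcr2 was seen in 0.5%, Mmp9 in 1.7% and G0s2 in 1.0%. Il1r2 was seen in 21.7% of T cells, so a single UMI of it says less. Ly6g, the surface antigen used to gate mouse neutrophils, gave UMIs in 43 cells, against 0.3% of T cells.

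Measured as the mean of the 7 libraries, the 20 genes that stood out most against all other kept barcodes (at least 200 CPM, UMIs of a gene per 1000000 UMIs) were Cstdc4, Stfa2l1, Retnlg, S100a9, Asprv1, G0s2, Ly6g, Lrg1, S100a8, Wfdc21, Mmp9, Cxcr2, Lcn2, Camp, Ngp, Dhrs9, Ltf, Mmp8, Cd177 and Dach1. Cxcr2 averaged 515 ± 300.4 CPM in neutrophils (SD, n = 7), against 1.14 CPM in the rest. Mmp9 averaged 791 CPM in neutrophils and 1.58 CPM in the rest. The cells were set apart by this selection, so the ratios are a description.

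Transcripts of other cell types were present at levels that differed by library. Defining markers at 0 UMIs in the 86 cells were Mrc1 of macrophages, Tmem119 and Sall1 of microglia, Xcr1 of dendritic cells, Cd79a and Ms4a1 of B cells, and Prg2 and Epx of eosinophils. Summed over whole lists, 10 macrophage genes stood at 358 to 3532 CPM by library, against 20891 CPM in all other barcodes. For 8 microglia genes, with Siglech among them, the sums were 0 to 1065 CPM, highest in PT2385 pool 1, against 2378 CPM. For 8 dendritic cell genes they were 0 to 362 CPM, again highest in PT2385 pool 1, against 226 CPM, and for 6 neural and glioma genes 0 to 342 CPM, against 114 CPM. NK cell genes reached 206 CPM in ICB pool 1, against 295 CPM, and T cell genes 141 CPM in PT2385 pool 1, against 793 CPM. The selection itself capped C1qa, C1qb and C1qc and excluded Cd3e, Cd3d and Cd3g. Low macrophage and T cell sums are thus in part set by it and are no independent check. B cell genes reached 215 CPM, against 245 CPM in other barcodes, and eosinophil genes 150 CPM, 1 UMI of the untreated library, against 10.7 CPM. Of 8 erythroid and platelet genes 7 were at 0, and the eighth had 1 UMI. The 10 MHC class II genes summed to 21798 CPM in ICB pool 2 and to 634 to 5667 CPM in the other libraries, against 29737 CPM in all other barcodes. The 10 monocyte genes listed summed to 1212 to 8193 CPM in the neutrophils of a library, against a mean of 10955 CPM in monocytes. Of the 86 cells, 12 carried at least 3 of 6 monocyte markers, among them Ly6c2, Ccr2 and Csf1r, and these had a median of 16908.5 UMIs, against 3881.5 UMIs in the other 74. Whether they are doublets or cells with both programmes was not tested.

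Neutrophils were most frequent in ICB pool 1, which supplied 44 of the 86 cells. Combination pool 1 held 15 neutrophils, or 0.310% of kept barcodes, and combination pool 2 held 6, or 0.111%. ICB pool 1 stood at 0.748% and ICB pool 2, with 6 cells, at 0.103%. PT2385 pool 1 had 7 cells (0.135%) and PT2385 pool 2 had 6 (0.113%). The untreated library had 2 cells, or 0.0251%. Exact 95% binomial intervals, which cover counting error only, were 0.544 to 1.00% for ICB pool 1 and 0.0379 to 0.225% for ICB pool 2, so pools given the same treatment did not overlap. The interval of the untreated library, 0.00304 to 0.0907%, lay below the point value of each treated library and overlapped the intervals of 4 of them.

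**Figure D1:**
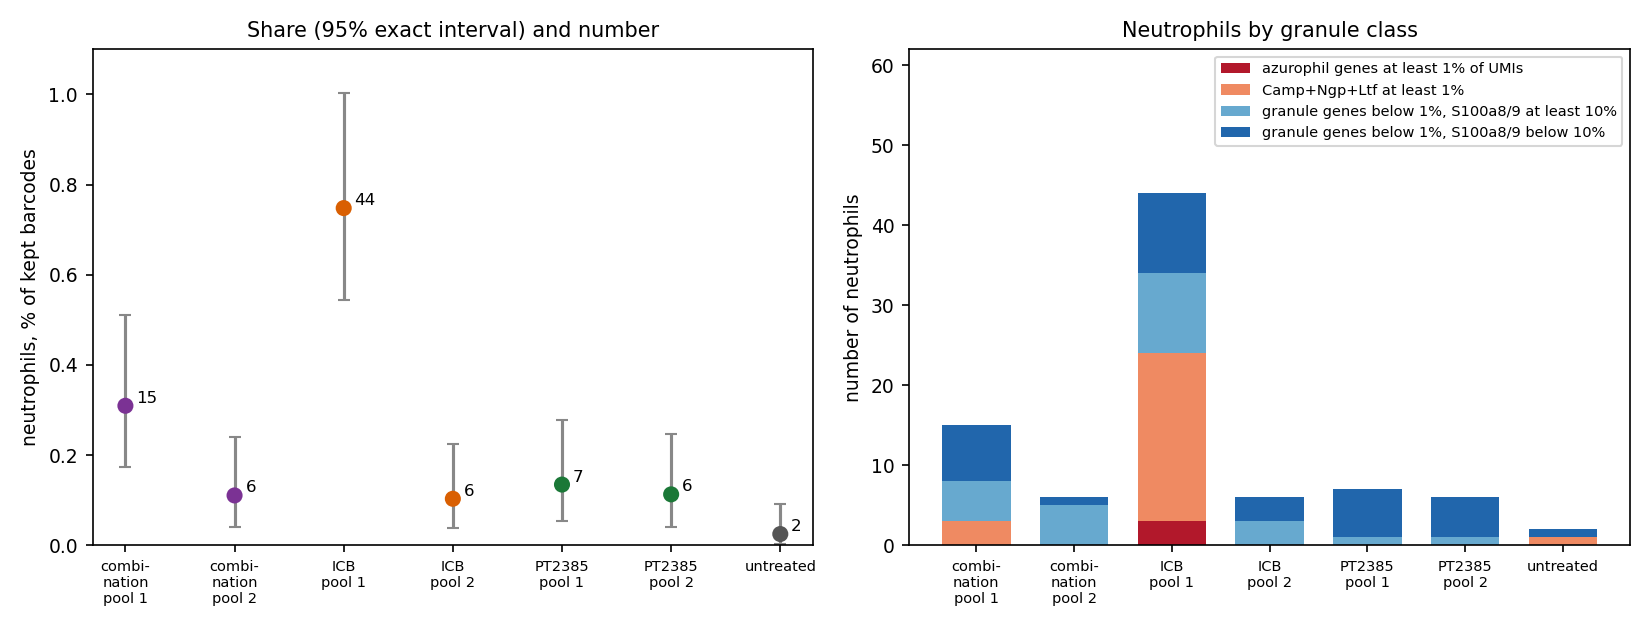
Left, percent of kept barcodes that were neutrophils in each library, with exact 95% binomial intervals and the number of cells. Right, the number of neutrophils in each library by granule class. ICB pool 1 holds 44 cells at 0.748%, while the other 6 libraries lie between 0.0251 and 0.310%.

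The share differed between treatments by less than it did between the 2 ICB pools. With ICB the mean was 0.318 ± 0.302% and without it 0.0910 ± 0.0581% (SD, n = 4 and 3), a difference of 0.227 percentage points with p = 0.343 in an exact two-sided permutation test (0.686 adjusted over both tests). With PT2385 the mean was 0.167 ± 0.0956%, against 0.292 ± 0.397% without it (SD, n = 4 and 3), a difference of -0.125 percentage points with p = 0.857 in the same exact test (0.857 adjusted). These 35 arrangements cannot give a p under 0.0571. Without ICB pool 1 the ICB difference was 0.0835 percentage points (exact p = 0.6) and the PT2385 difference turned to 0.103 (exact p = 0.133, the smallest the remaining 6 libraries can give). That 1 pool thus sets much of the size of the first difference and the sign of the other. Each comparison holds the other treatment unequally on its 2 sides. Taken within strata of the other treatment over all 7 libraries, the differences were 0.243 percentage points for ICB and -0.0583 for PT2385.

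The 86 cells were grouped by their transcripts of granule genes. Elane and Prtn3 (serine proteases), Ctsg (cathepsin G) and Mpo (myeloperoxidase) of the azurophil granule together reached 1% of UMIs in 3 cells, at 2.33 to 5.48%, and the next cell stood at 0.0118%. Camp, Ngp and Ltf of the secondary granule together reached 1% in 25 further cells and were at most 14.8%. In 38 cells they were at 0. The remaining 58 cells were divided by S100a8 and S100a9 into 25 with at least 10% of UMIs and 33 below it. These limits were set after the values were seen. Between 0.5 and 2% for the secondary granule genes lay 8 cells, and between 8 and 12% for S100a8 and S100a9 lay 7, so these 2 limits cut through a range and do not separate types. No cell lay near the azurophil limit. The 58 cells below both granule limits are called later cells here, and whether they were more mature was not tested.

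**Figure D2:**
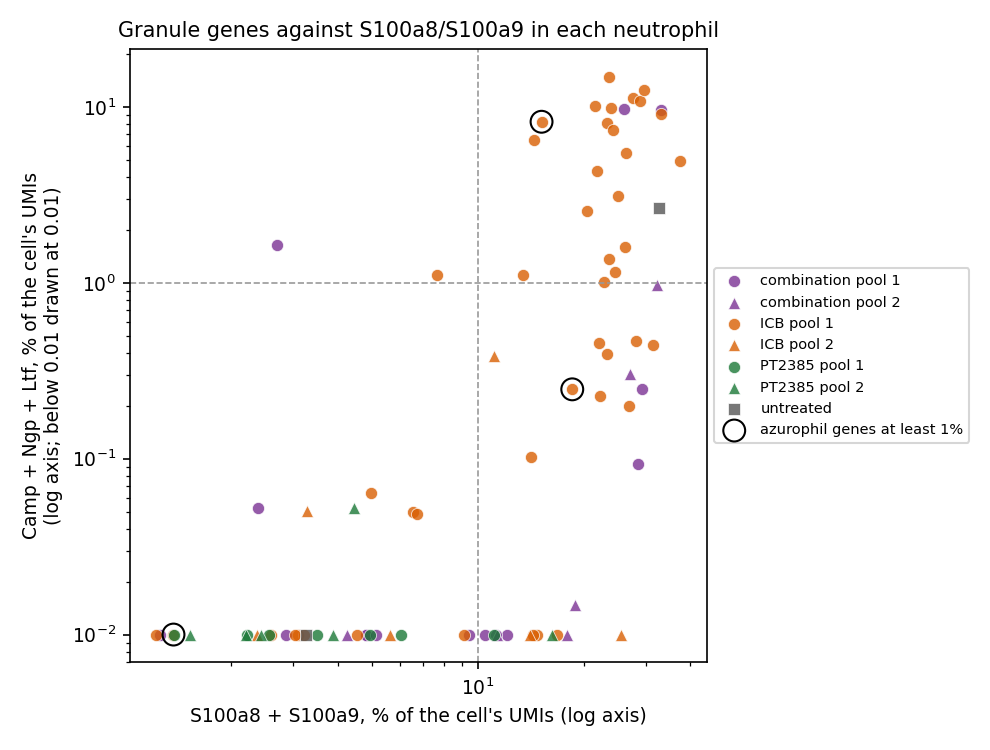
Each point is 1 of the 86 neutrophils, with S100a8 plus S100a9 on the x axis and Camp plus Ngp plus Ltf on the y axis, both as percent of the cell's UMIs on log axes, with values below 0.01 drawn at 0.01. Colours and shapes mark the library, rings mark the 3 cells with azurophil genes at 1% or more, and dashed lines mark 1% and 10%. Cells above the horizontal line are mostly of ICB pool 1, and no cell of the PT2385 pools lies above it.

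All 3 azurophil cells came from ICB pool 1 and were large, with 11922, 34887 and 36313 UMIs. Elane had 1680 UMIs, Ctsg 597 and Mpo 542, each in these 3 cells only. Prtn3 had 1110 UMIs in 6 cells. Their S100a8 and S100a9 shares were 15.2, 1.37 and 18.5%, in the order of depth just given, and the cell at 1.37% also carried 4 of the 6 monocyte markers. Each of the 3 also passed 0.3% of UMIs from 14 cell cycle genes, as did 1 further cell of ICB pool 1 and 2 of combination pool 1. Those 6 cells had 0.342 to 0.789% and the next cell 0.0784%. Mki67 and Top2a, markers of dividing cells, had 76 and 102 UMIs in all, seen in 8 cells each.

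Camp (the cathelicidin peptide), Ngp (neutrophilic granule protein), Ltf (lactoferrin) and Lcn2 (lipocalin-2, which binds iron carriers of bacteria) stand for the secondary granule list, of which the first 3 define the class. Each had its highest pooled level in the secondary granule class, and the transcription factor C/EBPε is known to drive secondary granule genes. Their promoters are shown because these genes separate the classes. They are 300 bases from RefSeq on GRCm38.p6, a build other than the GRCm39 named for the counts, and run 250 bases before to 50 after the annotated start. Capitals mark TTGCNNAA, a core of C/EBP sites, searched on both strands without other motifs.
Camp, chr9:109849407-109849706, minus strand: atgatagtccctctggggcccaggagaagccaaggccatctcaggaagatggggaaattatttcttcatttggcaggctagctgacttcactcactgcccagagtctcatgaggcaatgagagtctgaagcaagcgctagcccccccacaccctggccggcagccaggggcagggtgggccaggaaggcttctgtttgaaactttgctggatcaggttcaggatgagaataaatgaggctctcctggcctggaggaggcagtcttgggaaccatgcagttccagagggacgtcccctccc
Ngp, chr9:110419558-110419857, plus strand: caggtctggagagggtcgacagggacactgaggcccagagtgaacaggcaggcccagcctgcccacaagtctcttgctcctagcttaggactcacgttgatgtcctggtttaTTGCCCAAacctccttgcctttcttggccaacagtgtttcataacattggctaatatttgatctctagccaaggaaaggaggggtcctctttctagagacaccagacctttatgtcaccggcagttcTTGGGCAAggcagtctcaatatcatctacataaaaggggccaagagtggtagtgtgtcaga
Ltf, chr9:111019042-111019341, plus strand: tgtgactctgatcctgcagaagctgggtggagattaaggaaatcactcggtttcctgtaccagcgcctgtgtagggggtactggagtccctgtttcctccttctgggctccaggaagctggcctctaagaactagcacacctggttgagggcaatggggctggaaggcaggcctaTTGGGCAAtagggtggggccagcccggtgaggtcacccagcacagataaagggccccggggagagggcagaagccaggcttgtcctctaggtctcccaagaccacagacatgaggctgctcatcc
Lcn2, chr2:32387690-32387989, minus strand: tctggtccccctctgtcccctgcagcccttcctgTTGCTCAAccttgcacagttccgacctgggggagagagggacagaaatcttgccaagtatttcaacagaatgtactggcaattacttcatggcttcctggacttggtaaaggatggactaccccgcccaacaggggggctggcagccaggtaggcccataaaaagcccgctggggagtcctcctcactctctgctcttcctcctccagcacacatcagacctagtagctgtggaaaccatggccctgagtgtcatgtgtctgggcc
The letters occurred 2 times in the Ngp window, 1 time each in those of Ltf and Lcn2, and 0 times in that of Camp. Of 32851 promoter windows taken from RefSeq, 10.8% hold the motif. Of the 11 secondary granule genes listed, 9 had a window and 6 of these held it. A match is a string of letters and not a shown site.

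Pooled over cells, Camp stood at 9997 CPM in the azurophil class, 30347 CPM in the secondary granule class, 397 CPM in the later cells rich in S100a8 and S100a9 and 27.4 CPM in the later cells poor in them. Cebpe, the gene for C/EBPε, was highest in the azurophil class, with 445, 297, 42.2 and 21.9 CPM. Retnlg, a resistin-like protein of mature neutrophils, was at 0, 12913, 30454 and 3449 CPM, so it peaked 1 class later than Camp. Cxcr2 was likewise highest in the later cells rich in S100a8 and S100a9, with 12.0, 174, 803 and 439 CPM. Mmp8 (collagenase) stood at 0, 1169, 1606 and 247 CPM, and Mmp9 at 0, 1038, 1462 and 625 CPM. Cells of 1 library share its RNA background, and 24 of the 28 cells in the granule classes come from ICB pool 1, so granule class and library cannot be told apart well.

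Transcripts of secreted mediators were highest outside the granule classes. Il1b, which encodes interleukin-1β, stood at 12.0 and 820 CPM in the azurophil and secondary granule classes and at 4986 and 5769 CPM in the later cells rich and poor in S100a8 and S100a9. Cxcl2, a ligand of Cxcr2, ran 0, 589, 4918 and 2451 CPM over the same 4 classes. Summed over 25 cytokine and chemokine genes the classes stood at 253, 2756, 13664 and 11729 CPM. For 18 receptors of migration and adhesion the sums were 734, 3236, 6693 and 5067 CPM, and for 26 genes of T cell restraint 349, 2246, 7090 and 7189 CPM. The T cell restraint list includes Entpd1 (the ATP-degrading enzyme CD39), at 48.1, 192, 1656 and 1541 CPM, and Wfdc17, at 12.0, 26.2, 1208 and 1004 CPM. Genes of other cells moved with the classes as well: 10 MHC class II genes summed to 265, 1784, 3938 and 8971 CPM and 10 monocyte genes to 4439, 2037, 1927 and 5346 CPM. Of the 12 cells with at least 3 monocyte markers, 1, 3, 2 and 6 fell in these classes. Their part in the sums was not tested. Hypoxia and glycolysis genes hardly followed the classes, with sums of 5979, 5085, 5670 and 6141 CPM over 33 genes.

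**Figure D3:**
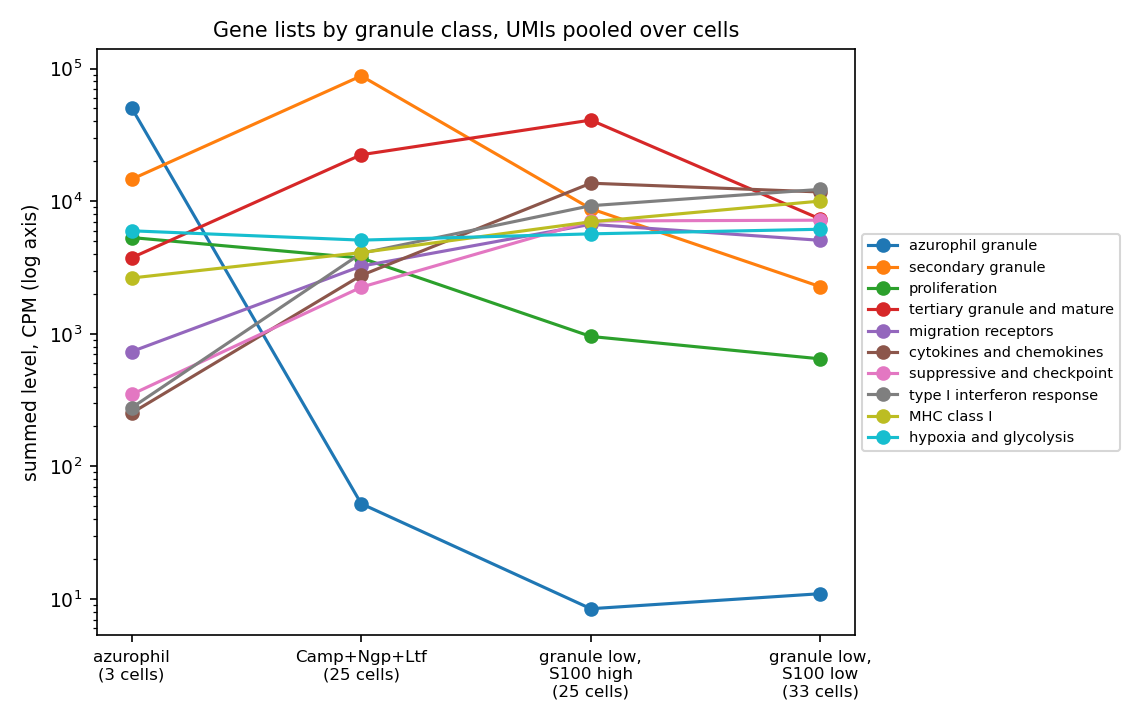
Summed level of 10 gene lists in CPM (log axis, UMIs pooled over the cells of a class) in the 4 granule classes, with the number of cells below each. Azurophil, secondary granule and tertiary granule genes peak in turn, and cytokine, migration and checkpoint lists are highest in the cells with granule genes below 1%. The classes were cut on members of the first 2 lists.

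Several genes often read in tumour neutrophils were near or at 0. Cxcl1, Il6, Il23a and Il12b had 0 UMIs in the 86 cells, which together held 613140 UMIs. Arg1 had 3 UMIs, against 150 for its relative Arg2 in 47 cells. Epas1, which encodes the PT2385 target HIF-2α, had 0 UMIs, and Hif1a, which encodes the related HIF-1α, had 80 UMIs in 33 cells. In T cells, which were deeper, Hif1a was seen in 82.4%.

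Libraries differed in which classes they held. Cells of the granule classes made up 3 of 15 in combination pool 1 and 0 of 6 in combination pool 2, 24 of 44 in ICB pool 1 and 0 of 6 in ICB pool 2, 0 of 7 and 0 of 6 in the PT2385 pools, and 1 of 2 in untreated mice. A count of 0, read as fewer than 3 cells, allows a share of up to 0.0578% of kept barcodes in PT2385 pool 1 and 0.0566% in PT2385 pool 2, where exact 95% intervals reach 0.0710 and 0.0695%. Within ICB the pools were apart, at 0.408% (exact interval 0.262 to 0.606%) and 0 (exact interval up to 0.0635%). Later cells were 0.248 and 0.111% of kept barcodes in the combination pools, 0.340 and 0.103% in the ICB pools, 0.135 and 0.113% in the PT2385 pools and 0.0126% in the untreated library. Counting the later cells alone, the ICB difference was 0.114 percentage points (exact permutation p = 0.343).

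Granule and maturity genes also differed in level between libraries. Camp stood at 21901 and 423 CPM in the combination pools, 15579 and 690 CPM in the ICB pools, 0 and 0 in the PT2385 pools and 7783 CPM in the untreated library. Retnlg stood at 6821 and 26557 CPM in the combination pools, 12770 and 22737 CPM in the ICB pools, 1025 and 71.6 CPM in the PT2385 pools and 19308 CPM in the untreated library. PT2385 alone was thus the group whose cells held least of both, and since both genes are part of the selection this is given without a test. In the untreated library each gene came from 1 of 2 cells. Camp came from 1 of 6 cells in ICB pool 2 and in combination pool 2. S100a8 and S100a9 were a median of 9.46 and 18.4% of a cell's UMIs in the combination pools, 21.7 and 8.40% in the ICB pools, 3.51 and 3.15% in the PT2385 pools and 17.9% over the 2 untreated cells.

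The lowest marker count was that of PT2385 pool 2. The cells of the PT2385 pools carried a median of 7 and 3.5 of the 12 neutrophil markers, against 6 and 10.5 in the combination pools, 9 and 8.5 in the ICB pools and 8.5 in untreated mice. In each PT2385 pool 2 cells had at least 3 monocyte markers. They held 19729 and 16899 of the 49759 neutrophil UMIs of PT2385 pool 1. In PT2385 pool 2 they held 16918 and 1563 of 27950. These cells thus carried most of the UMIs behind the summed levels of both pools. F13a1, a monocyte gene, had 38 UMIs in PT2385 pool 2, all in 1 cell. In PT2385 pool 1 Siglech, a gene of plasmacytoid dendritic cells and microglia, had 42 UMIs in 2 cells. These UMIs are also part of the microglia sum given above. The dendritic gene Clec9a had 11 UMIs in 2 cells of that pool. In ICB pool 2 Cd74, the invariant chain of MHC class II, had 329 UMIs, of which 2 cells with at least 5 monocyte markers carried 147 and 179. Those 2 cells held 9928 and 14551 of the 36241 neutrophil UMIs of ICB pool 2. The part of such cells in the differences below was examined only by leaving out cells with 3 or more monocyte markers. That left 245 genes for the PT2385 and ICB tests. Of the genes named below by smallest p, Cd274, Upp1, Osbpl8, Gpi1 and Stx11 were not among them. Their differences were therefore not examined in this way. Rpl15 was likewise not among the 460 genes left for the interaction.

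Receptors of mature cells were found in all 7 libraries. Csf3r, the receptor of the growth factor G-CSF and a gene of the selection, ranged between 466 and 1048 CPM. Il1r2 ranged between 644 and 3443 CPM. The 18 receptors of migration and adhesion summed to 4192 and 8299 CPM in the combination pools, 3542 and 5877 CPM in the ICB pools, 4582 and 3256 CPM in the PT2385 pools and 5837 CPM in the untreated library. Clec4d, a receptor of myeloid cells for mycobacterial lipid, lay between 179 and 1530 CPM, and the inflammasome sensor Nlrp3 between 276 and 1297 CPM.

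**Figure D4:**
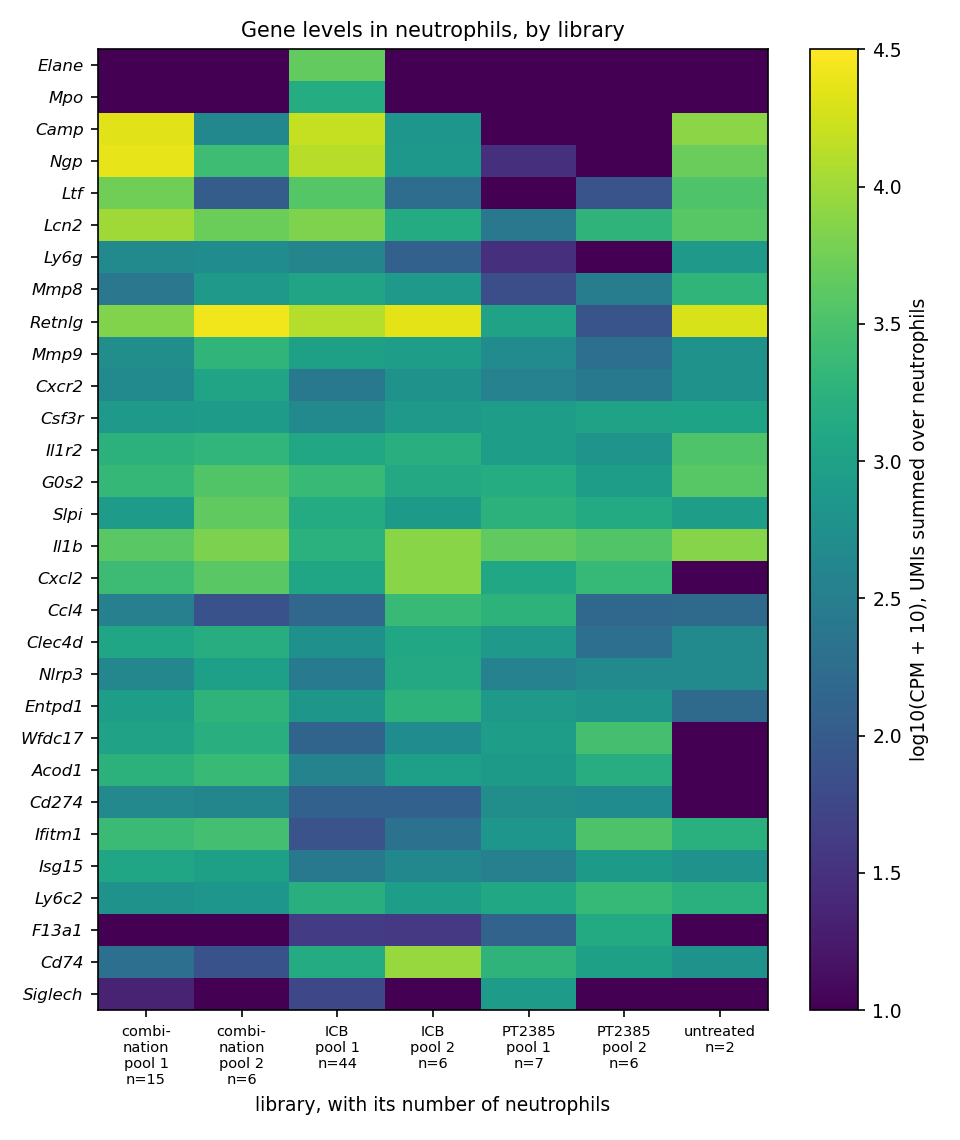
Levels of 30 genes in neutrophils, as log10 of CPM plus 10 from UMIs summed per library, with libraries as columns and their number of neutrophils below. Elane and Mpo are seen in ICB pool 1 alone, Camp and Ngp are lowest in the PT2385 pools, and Csf3r, a gene of the selection, ranges between 466 and 1048 CPM.

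Gene differences between treatments were tested on UMIs summed per library. Only 2 of the 7 libraries, ICB pool 1 and combination pool 1, held the 10 cells that had been set as a minimum, which leaves no residual degrees of freedom. All 7 libraries were therefore fitted, a choice made after the cell numbers were known. ICB pool 1 gave 60.9% of all neutrophil UMIs, and 1 UMI in the untreated library, with 6681 neutrophil UMIs, is worth 150 CPM. Values below 3 UMIs, or 449 CPM, cannot be told from absence there.

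For PT2385 (combination and PT2385 against ICB and untreated), 0 of 854 genes passed an adjusted p of 0.05 in edgeR's quasi-likelihood test, or 0%, with 28 at an unadjusted p under 0.05. DESeq2 called 0, with 30 at an unadjusted p under 0.05. For ICB (combination and ICB against PT2385 and untreated) it was 0 of 854, or 0%, in edgeR, with 50 at an unadjusted p under 0.05, and 1 in DESeq2. The combination against untreated mice gave 0 of 1517 genes, or 0%, in edgeR, with 106 at an unadjusted p under 0.05, and 0 in DESeq2, with 38. The interaction of both treatments gave 0 of 1517, or 0%, in edgeR, with 221 at an unadjusted p under 0.05, and 17 in DESeq2. The genes with the smallest p in each are described below by their values. A miss at these cell numbers does not show that levels were alike.

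Cd274 encodes PD-L1, the ligand of the PD-1 receptor that ICB blocks. It stood at 431 and 391 CPM in the combination pools and 523 and 501 CPM in the PT2385 pools, against 112 and 110 CPM in the ICB pools and 0 in the untreated library. All 4 libraries with PT2385 were above both ICB pools. The combination pools lay under the 449 CPM that 3 UMIs are worth in the untreated library, so their order against it is not shown. With the untreated library counted at 0, the mean was 461 ± 61.3 CPM with PT2385 and 74.3 ± 64.3 CPM without (SD, n = 4 and 3). The log2 fold change was 2.23 ± 0.54 (SE), with an adjusted p of 0.80 in edgeR and between 0.344 and 1 over the alternatives. Among the genes tested, 15, or 1.76%, were listed higher in all 4 PT2385 libraries and 12, or 1.41%, lower, with untreated values under 3 UMIs taken as they stand. Cd274 transcripts came from 7 and 4 cells of the combination pools and 3 and 4 of the PT2385 pools, against 11 and 1 of the ICB pools. Without the granule classes Cd274 stood at 915 and 391 CPM in the combination pools, 523 and 501 CPM in the PT2385 pools, 268 and 110 CPM in the ICB pools and 0 in the 1 untreated cell left, where a single UMI is worth 380 CPM. All 4 libraries with PT2385 were again above both ICB pools. Monocytes of the same libraries shared the order in part. The combination pools stood at 371 and 803 CPM and the PT2385 pools at 880 and 807 CPM. The ICB pools stood at 328 and 390 CPM and the untreated library at 523 CPM. In monocytes combination pool 2 and both PT2385 pools were thus above the libraries without PT2385, and combination pool 1 was not.

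Upp1, a uridine phosphorylase, had 521 and 521 CPM in the combination pools and 20.1 and 179 CPM in the PT2385 pools, against 29.4 and 27.6 CPM in the ICB pools and 0 in the untreated library. PT2385 pool 1 and ICB pool 2 each held 1 UMI of Upp1, under the 60.3 and 82.8 CPM that 3 UMIs are worth there. The order of PT2385 pool 1 against the ICB pools is thus not shown. In combination pool 2, 13 of 16 Upp1 UMIs came from 1 cell, and in PT2385 pool 2 all 5. Upp1 had an adjusted p in edgeR of 0.80 at a log2 fold change of 4.22 ± 0.88 (SE). Osbpl8, a lipid transfer protein, was lower in all 4 libraries with PT2385, at 125 and 97.6 CPM in the combination pools and 100.5 and 107 CPM in the PT2385 pools, against 276 and 441.5 CPM in the ICB pools and 1497 CPM from 10 UMIs in the untreated library (log2 fold change -2.31 ± 0.59, edgeR adjusted p = 0.80). With that library left out, the log2 fold change was -1.41.

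Interferon-induced genes are given next by values, with Gbp2 and Irf1 chosen after their values were seen. Gbp2, an interferon-induced GTPase, stood at 748 and 391 CPM in the combination pools and 241 and 966 CPM in the PT2385 pools, against 50.9 and 138 CPM in the ICB pools and 150 CPM, a single UMI, in the untreated library. Irf1, a transcription factor of the interferon response, stood at 476 and 325.5 CPM in the combination pools and 603 and 1324 CPM in the PT2385 pools, against 174 and 193 CPM in the ICB pools and 0 in the untreated library. Both were higher in all 4 libraries with PT2385 than in both ICB pools, and untreated values under 3 UMIs give no order, with edgeR adjusted p of 0.80 for Gbp2 and 0.998 for Irf1. Of 31 interferon response genes found in the files 16 were tested, 0 passed in either direction, and their median log2 fold change for PT2385 was 0.96, beside 0.05 over all 854 genes. For 12 migration receptors the median was 0.44 with 0 called. For 9 hypoxia and glycolysis genes it was 0.20 with 0 called. The 31 interferon response genes summed to 13800 and 9536 CPM in the combination pools and 7074 and 16637 CPM in the PT2385 pools. The ICB pools stood at 4447 and 6678 CPM and the untreated library at 7933 CPM, so the sides overlapped. Without the granule classes combination pool 1 stood at 28378 CPM, ICB pool 1 at 6840 CPM and the untreated library at 14047 CPM. Over the 4 granule classes the sums were 277, 4047, 9245 and 12278 CPM.

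For ICB the smallest p-values belonged to Gpi1, Cstdc4 and Stx11. Gpi1, a glycolytic enzyme, stood at 521 and 618 CPM in the combination pools and 503 and 497 CPM in the ICB pools, against 181 and 215 CPM in the PT2385 pools and 0 in the untreated library. The 2 sides did not overlap (log2 fold change 2.11 ± 0.55, edgeR adjusted p = 0.73). Without the granule classes they did, since Gpi1 was at 193 CPM in combination pool 1 and 206 CPM in ICB pool 1, and the log2 fold change was 1.21. Cstdc4, a cysteine protease inhibitor of the stefin type, stood at 102 and 4524 CPM in the combination pools and 345 and 2621 CPM in the ICB pools, against 80.4 and 35.8 CPM in the PT2385 pools and 0 in the untreated library. In combination pool 2, 134 of its 139 UMIs came from 1 cell, and in ICB pool 2, 73 of 95. Its adjusted p was 0.73 in edgeR and 0.0376 in DESeq2, and over the alternatives it ran between 6.03e-05 and 0.995. Stx11, a syntaxin of granule release, had 272 and 846 CPM in the combination pools and 396 and 414 CPM in the ICB pools, against 40.2 and 179 CPM in the PT2385 pools and 150 CPM in the untreated library (log2 fold change 2.48 ± 0.71, edgeR adjusted p = 0.73). For Stx11 the log2 fold change was 1.75 without PT2385 pool 1 and 1.80 without combination pool 2, and for Cstdc4 it was 5.48 over all libraries and 2.37 without combination pool 2.

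C5ar1, which senses the complement fragment C5a and was also chosen after its values were seen, stood at 408 and 683.5 CPM in the combination pools and 233 and 635 CPM in the ICB pools, against 201 and 179 CPM in the PT2385 pools and 150 CPM, 1 UMI, in the untreated library (log2 fold change 1.71 ± 0.55, edgeR adjusted p = 0.73). All 4 libraries with ICB were above both PT2385 pools. Among the genes tested for ICB, 25, or 2.93%, were listed higher in the 4 ICB libraries and 37, or 4.33%, lower, again with untreated values as they stand. The 12 migration receptors tested had a median log2 fold change of 0.66 for ICB, beside 0.11 over all genes, with 0 called. The granule lists hold genes of the selection and are given no summary by treatment. Beside these stands Ttr, a transcript of the choroid plexus, at 215 and 326 CPM in the neutrophils of the combination pools and 32.1 and 276 CPM in those of the ICB pools, against 0 in both PT2385 pools and the untreated library. In the other kept barcodes Ttr was at 20777 and 23055 CPM in the combination pools and 4502 and 7475 CPM in the ICB pools, against 197 and 94.0 CPM in the PT2385 pools and 0.257 CPM in the untreated library. The other 5 choroid plexus genes were at 0 in neutrophils, and the part of free RNA in these differences was not tested.

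**Figure D5:**
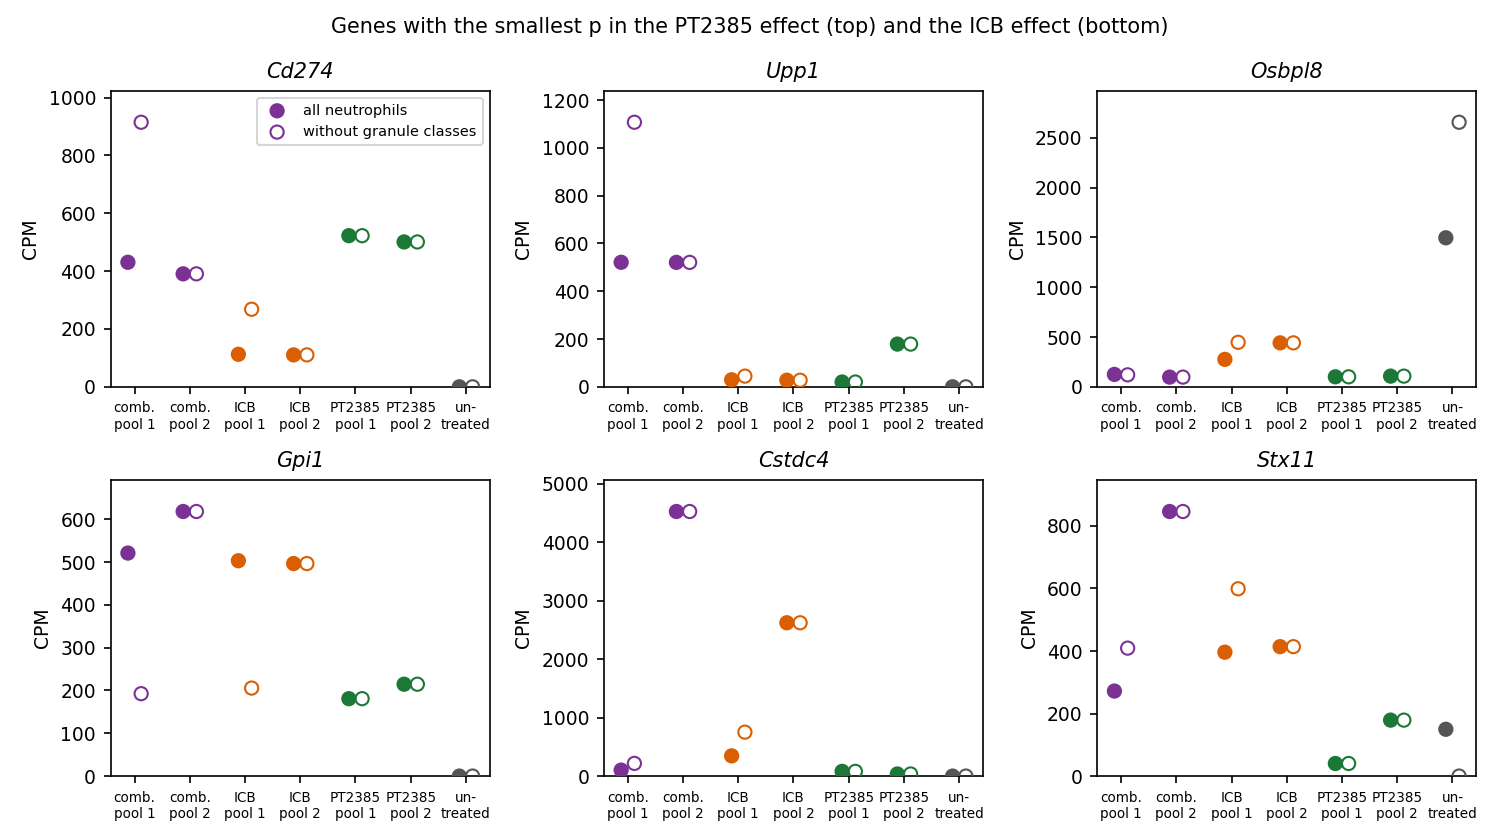
CPM per library of the 3 genes with the smallest p for PT2385 (top) and for ICB (bottom), over all neutrophils (filled) and without the granule classes (open). Over all neutrophils Cd274 lies between 391 and 523 CPM in libraries with PT2385 and at 112 and 110 CPM in the ICB pools, with 0 UMIs in the 2 untreated cells, while Gpi1 separates by ICB over all neutrophils and not without the granule classes.

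In the combination against untreated mice the smallest p-values belonged to Acod1 (the itaconate-making enzyme of activated myeloid cells), Slc7a11 (a cystine transporter) and Gng5 (a G protein subunit). Acod1 had 157 and 73 UMIs in the combination pools and 0 in the 2 untreated cells, that is 1779 and 2376 CPM against less than the 449 CPM of 3 UMIs. It was also at 359 and 938 CPM in the ICB pools and 804 and 1503 CPM in the PT2385 pools. Slc7a11 stood at 1518 and 2604 CPM in the combination pools, against 150 CPM, 1 UMI, in the untreated library. Gng5 stood at 725 and 814 CPM in the combination pools and had 0 UMIs in the untreated library. Neither was particular to the combination. Slc7a11 was found in 33 of 44 and 5 of 6 cells of the ICB pools and 5 of 7 and 3 of 6 of the PT2385 pools. For Gng5 these were 41 of 44 and 6 of 6, and 6 of 7 and 5 of 6. All 3 had an edgeR adjusted p of 0.69. Leaving out 1 combination pool changed no call, and the fit cannot be made without the lone untreated library.

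The interaction rested on that library as well. Dgat1, which makes triglycerides, stood at 578 and 748.5 CPM in the combination pools, 744 and 911 CPM in the ICB pools, 20.1 and 35.8 CPM in the PT2385 pools and 3293 CPM, 22 UMIs, in the untreated library (edgeR adjusted p = 0.18, DESeq2 adjusted p = 0.00541). Each PT2385 pool had 1 UMI of it. Plac8 and Rpl15 were at 0 in the untreated library. Plac8 stood at 521 and 553 CPM in the combination pools, 1272 and 2014 CPM in the ICB pools and 1748 and 2433 CPM in the PT2385 pools, and Rpl15 at 215 and 163 CPM, 825 and 690 CPM, and 1005 and 1682 CPM in the same pools.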

How the data were processed

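Single-cell RNA libraries (10x Genomics 3′ v3.1) of 7 pools were deposited by the authors as raw UMI counts per gene and barcode, not normalized. Cell Ranger is version 7.0.0 per the file headers and 2.2.0 per the submitters' processing notes, which also name GRCm39 and Seurat 5. Members and gene lists were chosen with earlier results of these data known. CPM are counts summed over a library's neutrophils, per 1000000. Shares were compared by an exact permutation test over libraries. Gene counts were tested with edgeR 4.0.16 (quasi-likelihood, TMM, filterByExpr, Benjamini-Hochberg at 0.05), with DESeq2 1.42.0 as alternative. A minimum of 10 neutrophils per library left 2 libraries and no test, so all 7 were fitted. Named are the top 20 genes by ratio, the 3 smallest p per comparison and examples of each list. Scrublet's top scores (0.8% per 1000 barcodes) stood for doublets. The edgeR step was run on simulated counts per library, which had no single cells in them. Intervals cover counting error only. Of the 6 monocyte markers counted, not all are named here.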

Additional observations from a re-analysis of the deposited data

Results flagged for a closer look

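The PT2385 difference in the share of neutrophils had opposite signs with and without ICB. With ICB it was -0.215 percentage points (0.210% in the combination and 0.426% with ICB alone, means of 2 pools each). Without ICB it was 0.0988 percentage points (0.124% with PT2385 and 0.0251% in the 1 untreated library). The gap between these differences was -0.314 percentage points. It was not tested, and it depends on ICB pool 1, whose share was 0.748% against 0.103% in ICB pool 2. Combination pool 1 stood at 0.310% and combination pool 2 at 0.111%, both above ICB pool 2.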

How the results depend on the processing

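The share difference for PT2385 was -0.125 percentage points and turned to 0.103 without ICB pool 1. Leaving out each library in turn gave -0.259 to 0.103 for PT2385 and 0.0835 to 0.298 for ICB. Other settings kept the direction of both, down to -0.00038 for PT2385 without the granule classes. Counts of genes called were 0 to 0 over libraries left out, in all 4 comparisons. Without the filter on low counts 4 genes were called for PT2385 (Elane, Ctsg, Mpo and Prtn3, lower), 5 for ICB and 45 for the interaction. Elane, Ctsg and Mpo had UMIs in 3 cells of ICB pool 1 only, and 1106 of the 1110 Prtn3 UMIs came from the same 3 cells. Those 4 calls thus rest on 3 cells of 1 library. DESeq2 called 1 for ICB and 17 for the interaction, and leaving out the granule classes gave 3 for ICB, all used in the selection. The cause was not tested. Without the untreated library, the combination and interaction comparisons could not be fitted. No paired analysis was possible because pool numbers follow record order. The 86 cells, 2 of them untreated, limit every gene comparison.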
